A study of Mus with 18 samples.

Results

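The neuromuscular junction genes described here are 10 of the 21401 gene symbols in each of the FPKM tables of the study (fragments counted per transcript length and library size). They were taken by symbol, from a list that was chosen with earlier results of these data known. They are Chrna1, Chrnb1, Chrnd, Chrne and Chrng, which encode the subunits of the muscle acetylcholine receptor, Musk, Dok7, Rapsn and Lrp4, which encode proteins that gather the receptors beneath the nerve ending, and Ache, which encodes acetylcholinesterase. All 10 were found in both tables.

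The study asked how lipopolysaccharide (LPS), a bacterial cell wall component that causes inflammation, and moringa isothiocyanate-1 (MIC-1), an isothiocyanate from moringa seeds, change gene expression in mouse muscle cells and muscle. RNA was sequenced in 18 libraries from 2 experiments, each with 3 control libraries, 3 after LPS and 3 after LPS with MIC-1. The muscle samples were gastrocnemius of wild type male C57BL/6 mice, whose age is not given in the sources used here. LPS was injected into the abdomen at 10 mg/kg, MIC-1 was given by gavage at 80 mg/kg on each of 3 days before it, and muscle was taken 16 h after LPS and trimmed of fat and connective tissue. The other samples carry the label C2C12, a wild type line of mouse myoblasts, the cells that fuse into muscle fibres, and were treated for 24 h with 1 μg/mL LPS, alone or with MIC-1. The labels give 10 μM MIC-1 for the cells, whereas the study's text names a lower concentration for the sequenced cells. The labels call the control vehicle saline, whereas the study's methods name ethanol for the cells and DMSO for the mice. No group received MIC-1 without LPS. The labels do not tie each library to a separate mouse or culture, so the p-values measure only the spread between these libraries, which may be technical.

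Cell type markers were compared with the labels first. In the C2C12 table, the macrophage markers (13 of 14 found) summed to between 11090 and 11130 FPKM in the libraries labelled control and between 8059 and 8315 in those labelled LPS, against 80.1 to 294 in LPS-MIC-1. The myoblast markers (10 of 10 found) went the other way, with sums of 0.964 to 1.44 for control and 2.04 to 4.46 for LPS, against 963 to 1220.5 for LPS-MIC-1. Myod1, the transcription factor that defines myoblasts, reached at most 0.0293 FPKM in control and 0.0355 in LPS, against 49.5 to 56.7 in LPS-MIC-1. In the 6 libraries labelled control and LPS, the markers thus do not match the named cell line, and each direction in that experiment is one between libraries with those labels. In muscle, 0 of the 12 muscle fibre markers were under 0.5 FPKM in all 3 libraries of a group. The acute-phase genes Lcn2 and Saa3, which rise in inflamed tissue, had 0.972 ± 0.552 and 1.03 ± 0.265 FPKM in the muscle libraries labelled LPS (SD, n = 3), 0.516 ± 0.444 and 0 in control, and 1248 ± 79.1 and 511 ± 31.8 in LPS-MIC-1. The high levels were thus those of the LPS-MIC-1 libraries, and both other groups were near 0. Whether the treatments of the muscle libraries were as labelled cannot be told from the files, so each muscle comparison is also one between libraries with those labels. The number of reads per library is not known. From the steps between the lowest values, the relative depths of the muscle libraries came out between 0.988 and 1.11. Only genes whose values above 0 were nearly equal across libraries entered this estimate, however. It could thus not have shown a large difference in depth. Too few C2C12 genes showed such steps for an estimate.

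At the neuromuscular junction, a motor nerve releases acetylcholine onto a small patch of the muscle fibre that is packed with acetylcholine receptors. The receptor is a channel of α, β and δ subunits with either a γ subunit, in embryonic and uninnervated muscle, or an ε subunit, in mature innervated muscle. Agrin from the nerve binds LRP4, LRP4 activates the kinase MuSK, DOK7 binds MuSK inside the fibre, and rapsyn links the receptors to one another and to the cytoskeleton. Acetylcholinesterase in the cleft breaks acetylcholine down and ends the signal.

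In muscle, Musk rose and Lrp4 fell in the LPS-MIC-1 libraries relative to those labelled LPS. Rapsn and Chrne fell there as well, by less than 2-fold, Chrnb1 rose slightly, and the differences of Chrna1, Dok7 and Ache did not pass the test. In LPS against control, Chrna1 and Musk rose by less than 2-fold, and the other differences did not pass. A gene was called where the absolute log2 fold change exceeded 1 and the adjusted p was under 0.05 in muscle or 0.001 in C2C12, and "rose" or "fell" is used for genes that passed the adjusted p at any fold. The adjusted p is from limma, with Benjamini-Hochberg adjustment over all genes with a mean above 1 FPKM. In muscle 8 members were among the 9475 genes tested, and each of the 8 exceeded 1 FPKM in every control and LPS library. Chrnd and Chrng were too low to be tested.

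**Figure D1:**
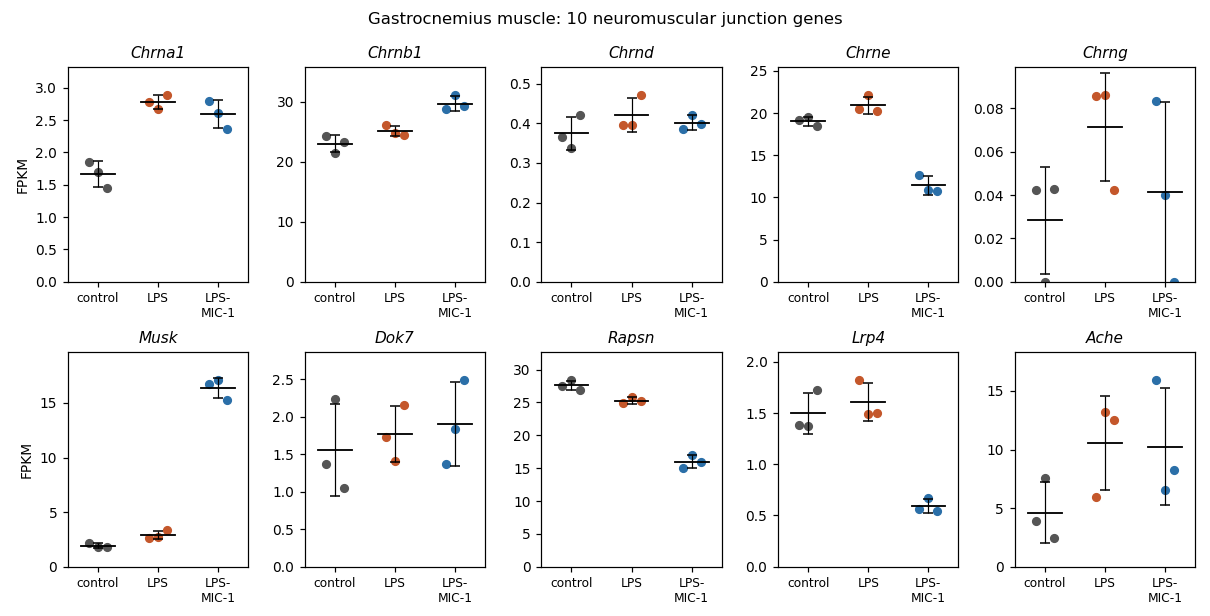
FPKM of the 10 genes in gastrocnemius, 1 panel per gene with a linear axis from 0. Points are libraries, horizontal lines are means and error bars are SDs over 3 libraries per group. Musk stood at 15.3 to 17.1 FPKM in LPS-MIC-1, above every other library, while Chrne, Rapsn and Lrp4 were lowest in that group.

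The genes of the clustering machinery moved in opposite directions. Musk, the receptor tyrosine kinase, had 2.18, 1.80 and 1.76 FPKM in the control libraries, 2.67, 2.73 and 3.35 in those labelled LPS and 16.7, 17.1 and 15.3 with LPS-MIC-1. The 3 groups did not overlap, and every LPS-MIC-1 library lay far above every other library. LPS-MIC-1 exceeded LPS by a ratio of means of 5.62, a log2 fold change of 2.46 (SE 0.116, adjusted p = 5.78e-07), and control by a ratio of 8.55. Lrp4, the agrin receptor that stands upstream of MuSK, had 1.39, 1.38 and 1.73 FPKM in the control libraries, 1.82, 1.49 and 1.50 in those labelled LPS and 0.561, 0.670 and 0.546 with LPS-MIC-1. Control and LPS overlapped, and the LPS-MIC-1 libraries were all lower. The log2 fold change against LPS was -1.30 (SE 0.180, adjusted p = 0.000365), so that LPS exceeded LPS-MIC-1 by a ratio of 2.71. With 1 FPKM added in place of 0.1, the log2 fold change of Lrp4 was -0.71 and no longer a call.

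Rapsn, which encodes rapsyn, had 27.5, 28.4 and 27.0 FPKM in the control libraries, 24.9, 25.8 and 25.2 in those labelled LPS and 15.1, 17.0 and 15.9 with LPS-MIC-1. Every LPS-MIC-1 library was below every other library, and the LPS libraries were also all below control, by a margin that did not pass the test (log2 fold change -0.13, SE 0.0508, adjusted p = 0.139). LPS exceeded LPS-MIC-1 by a ratio of means of 1.58, a log2 fold change of -0.66 for LPS-MIC-1 against LPS (SE 0.0508, adjusted p = 1.11e-05), which is short of the fold required for a call. Dok7, which encodes the cytoplasmic activator of MuSK, had 1.37, 2.24 and 1.06 FPKM in the control libraries, 1.73, 1.42 and 2.16 in those labelled LPS and 1.38, 1.84 and 2.49 with LPS-MIC-1. The 3 groups overlapped. The difference of LPS-MIC-1 from LPS was 0.08 on the log2 scale, with a 95% confidence interval from -0.63 to 0.79.

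Of the receptor subunits in muscle, the adult ε subunit gene showed the largest change. Chrne had 19.1, 19.5 and 18.5 FPKM in the control libraries, 20.5, 22.1 and 20.3 in those labelled LPS and 12.7, 10.9 and 10.7 with LPS-MIC-1. The LPS-MIC-1 libraries lay below all others, with LPS higher by a ratio of means of 1.83 and control by 1.67, and log2 fold changes of -0.87 (SE 0.0708, adjusted p = 1.55e-05) and -0.74 (SE 0.0708, adjusted p = 4.00e-05). In the RefSeq annotation (GRCm38.p6), Chrne overlaps another coding gene, 4930544D05Rik, whose level was 16.9 ± 1.08 FPKM in the control libraries, 13.4 ± 1.77 in those labelled LPS and 0.945 ± 0.195 with LPS-MIC-1 (SD, n = 3). Where their transcripts share sequence, reads of the 2 genes cannot be told apart without strand, and the part of the neighbour in the level of Chrne was not tested.

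Chrnb1, the β subunit gene, had 24.2, 21.5 and 23.3 FPKM in the control libraries, 26.1, 24.7 and 24.5 in those labelled LPS and 28.8, 31.0 and 29.2 with LPS-MIC-1. The groups did not overlap. LPS-MIC-1 was 18.2% higher than LPS (log2 fold change 0.24, SE 0.0558, adjusted p = 0.00626) and 28.9% higher than control (0.37, SE 0.0558, adjusted p = 0.000613). Quantile normalization of the libraries, under which the median log2 difference of all genes between LPS-MIC-1 and LPS was -0.12, lowered the first difference to 0.13 (adjusted p = 0.0769).

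Chrna1, the gene of the α subunit that carries most of the acetylcholine binding site, had 1.85, 1.70 and 1.45 FPKM in the control libraries, 2.78, 2.68 and 2.88 in those labelled LPS and 2.79, 2.61 and 2.37 with LPS-MIC-1. Both treated groups were above control without overlap, and they overlapped each other. LPS exceeded control by 67.0% (log2 fold change 0.71, SE 0.118, adjusted p = 0.00515) and LPS-MIC-1 exceeded control by 55.8% (0.61, SE 0.118, adjusted p = 0.00223). LPS-MIC-1 differed from LPS by -0.10 on the log2 scale, with a 95% confidence interval from -0.37 to 0.17.

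Chrnd, the δ subunit gene, stayed between 0.337 and 0.470 FPKM in all 9 muscle libraries, with means of 0.374 ± 0.0421 in the control libraries, 0.420 ± 0.0432 in those labelled LPS and 0.402 ± 0.0182 with LPS-MIC-1 (SD, n = 3). Chrng, the fetal γ subunit gene and the neighbour of Chrnd in the genome, was at or near the lowest level that the data resolve. It was listed at 0 in 1 control and 1 LPS-MIC-1 library, and its other values were either 1.00 to 1.06 or 2.08 to 2.14 times the lowest of them, 0.0402 FPKM, as 1 or 2 reads would give. Differences in Chrng between the muscle groups were thus not detectable at this depth.

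Ache had the largest standard error of the 8 genes tested in muscle. It had 3.90, 7.53 and 2.43 FPKM in the control libraries, 5.97, 13.2 and 12.5 in those labelled LPS and 15.9, 6.54 and 8.25 with LPS-MIC-1. All groups overlapped, with means of 4.62 ± 2.63, 10.6 ± 4.0 and 10.2 ± 4.99 (SD, n = 3). LPS exceeded control by a ratio of means of 2.29 (log2 fold change 1.24, SE 0.492, adjusted p = 0.135) and LPS-MIC-1 by a ratio of 2.21 (1.17, SE 0.492, adjusted p = 0.0709), and neither passed. Without control replicate 2, the highest control library, the second difference was 1.59 (adjusted p = 0.0247).

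**Figure D2:**
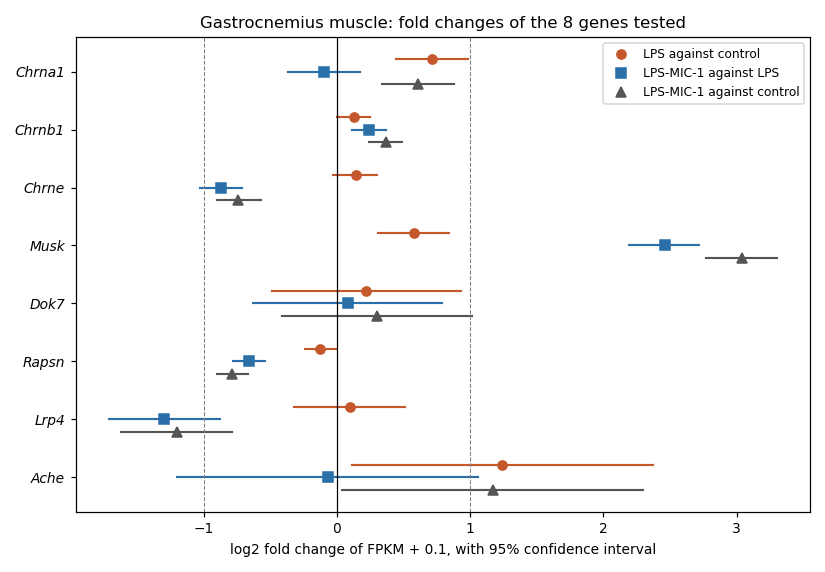
Log2 fold changes (FPKM + 0.1) of the 8 members tested in muscle, with 95% confidence intervals. Circles are LPS against control, squares LPS-MIC-1 against LPS and triangles LPS-MIC-1 against control. Dashed lines mark the fold required for a call, which Musk at 2.46 and Lrp4 at -1.30 passed against LPS, while Ache lay beyond it against control with intervals too wide to pass.

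Counted over the members, LPS-MIC-1 against LPS gave 2 calls of 8, with Musk higher and Lrp4 lower, beside 15.1% of all tested genes called (9.67% higher and 5.44% lower). At any fold, 5 of 8 passed, 2 higher and 3 lower, beside 56.5% of all tested genes (28.3% higher and 28.2% lower), so the share of members that passed was near the background. The median log2 fold change of the 8 members was -0.08, against -0.01 over all tested genes. Against control, LPS-MIC-1 gave the same 2 calls beside 15.5% of all genes, and 6 of 8 passed at any fold beside 58.5%. These comparisons share the LPS-MIC-1 libraries. LPS against control gave 0 calls with limma, beside 1.25% of all genes. At any fold Chrna1 and Musk passed (Musk at 0.58, SE 0.116, adjusted p = 0.0122), both higher, beside 15.7% of all genes (8.25% higher), and 4 of 8 had an unadjusted p under 0.05, beside 29.6%.

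Markers of other cells also differed between the muscle groups. These lists were chosen with earlier results of these data known, so their counts are given as a description. The counts for LPS-MIC-1 against LPS stand beside 15.1% of all tested genes called and 61.0% with an unadjusted p under 0.05. At any fold, 28.3% of all tested genes passed higher and 28.2% lower there. In LPS-MIC-1 against LPS, the muscle fibre list had 0 of 12 tested genes called (10 with an unadjusted p under 0.05), the myoblast list had 1 of 6, the macrophage list 4 of 9, the Schwann cell list 2 of 3, the endothelial list 2 of 7, the fibroblast list 2 of 7, the intestine list 1 of 1, the liver list 1 of 1 and the adipocyte list 0 of 2 (both with an unadjusted p under 0.05). The calls were higher in LPS-MIC-1 (among them Cd14 and Cd52, Mbp and Pmp22, Cldn5 and Esam, and Lgals4). The exceptions were those of the myoblast, fibroblast and liver lists (Myod1, Col1a1 and Col3a1, and Apoa1), which were lower. Cd14 exceeded a mean of 1 FPKM only through LPS-MIC-1 (7.54 FPKM, against 0.48 in LPS). Apoa1 did so mainly through LPS (3.35 FPKM, against 0.369 in control and 1.1 in LPS-MIC-1). Lgals4 and Apoa1 were each the 1 marker tested of 8 in their lists. Alb and Fgb, liver markers too low to be tested, were higher in LPS-MIC-1 (2.6 and 0.927 FPKM, against 0.0131 and 0 in LPS). The endothelial and fibroblast lists were mixed, since at any fold 4 endothelial markers rose and 2 fell, Kdr among the latter (-0.94, adjusted p = 0.000115), and 2 fibroblast markers rose and 4 fell, with Dcn, the most abundant, at 74.5 ± 0.600 FPKM in LPS, against 119.8 ± 7.91 in LPS-MIC-1 (SD, n = 3). In LPS against control, Myh1 of the muscle fibre list and Apoa1 were called higher, Mbp was called lower, and no other marker was called. Of all tested genes, 1.25% were called in that comparison. All 7 tested endothelial markers nevertheless fell at any fold in LPS against control (median -0.62), beside 7.48% of all tested genes. Their sums were 133 to 142 FPKM for control and 87.8 to 89.0 for LPS, against 121 to 138 for LPS-MIC-1. The muscle fibre markers summed to 203092 to 207003 FPKM in LPS but to 162340 to 176360 in LPS-MIC-1, and the Schwann cell markers to 11.7 to 12.6 and 29.4 to 31.8. Only 3 of the 12 Schwann cell markers were tested, and of these Mbp and Pmp22 rose. Cnp did not, with means of 3.91 and 3.55 FPKM. Mbp also had 50.2 FPKM in C2C12 control and Pmp22 144 in C2C12 LPS, groups that carry macrophage markers. The library medians of the Schwann cell list averaged 0.0358 and 0.0173 FPKM there. Whether the 2 genes mark Schwann cells in muscle was not tested. The macrophage markers summed to 32.3 to 34.7 FPKM in LPS, against 50.1 to 217 in LPS-MIC-1, where replicate 3 had 78.3 FPKM of Lyz2, a macrophage lysozyme gene, against 5.27 and 3.93 in the others. Without that replicate, the log2 fold change against LPS was 2.50 for Musk, -1.25 for Lrp4, -0.65 for Rapsn and -0.83 for Chrne. The part of the fibre, Schwann cell and endothelial markers in the results was not tested, and in such bulk samples fewer cells of a type cannot be told apart from less RNA per cell.

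The other genes of the junction gave no calls in muscle. Of a list of 23 further genes, from agrin and the synaptic laminins to the syntrophins, ErbB receptors and GABP subunits, 17 were tested in muscle and limma called 0 of them in LPS-MIC-1 against LPS, although 10 had an unadjusted p under 0.05, beside 61.0% of all tested genes. At any fold, 4 rose and 5 fell, beside 28.3% and 28.2% of all genes, and the median was 0.09. Dtna, which encodes the scaffold protein α-dystrobrevin, rose from 6.36 ± 0.604 to 10.8 ± 1.18 FPKM (SD, n = 3), 0.76 on the log2 scale (adjusted p = 0.000647). Agrn, which encodes agrin, the ligand of LRP4, went from 1.96 ± 0.296 to 3.11 ± 0.431 FPKM (0.64, adjusted p = 0.00627). Lamb2, the gene of the synaptic laminin β chain, fell from 25.0 ± 1.20 to 17.0 ± 0.341 FPKM (-0.55, adjusted p = 1.34e-05). LPS against control again gave 0 calls, with 10 of 17 genes at an unadjusted p under 0.05, beside 29.6% of all genes. At any fold 5 rose and 3 fell, beside 15.7% of all genes in either direction. This share is above that of all genes. The list was chosen with earlier results of these data known, however, so the count is given as a description. Among the genes that rose was Colq, whose collagen tail anchors acetylcholinesterase in the cleft. Colq had 2.73 ± 0.281 FPKM in the control libraries, 3.95 ± 0.370 in those labelled LPS and 3.64 ± 0.319 with LPS-MIC-1 (0.52 for LPS against control, adjusted p = 0.0176).

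Genes known to respond when a muscle loses its nerve were read beside them, because Musk, Chrna1, Chrnd and Chrng are also counted among such genes. Of 16 listed, 11 were tested, and 7 were called higher and 0 lower in LPS-MIC-1 against LPS, beside 9.67% and 5.44% of all genes, with a median of 3.21. Trim63, which encodes the muscle ubiquitin ligase MuRF1, rose from 78.9 ± 4.68 to 2263 ± 58.5 FPKM (SD, n = 3), 4.84 on the log2 scale (adjusted p = 7.47e-11). Ampd3, an AMP deaminase gene, was listed at 0 in the 3 LPS libraries and had 5.98 ± 1.18 FPKM in LPS-MIC-1. Runx1 and Ampd3 had a mean above 1 FPKM only through LPS-MIC-1, so their calls are no independent count. The list was also chosen with earlier results of these data known, so its count and median are given as a description. Against LPS, the myogenic factors did not move with them. Myog went from 16.5 ± 0.990 to 13.2 ± 0.784 FPKM (-0.32, adjusted p = 0.00274). Myod1, of the myoblast list, went from 33.9 ± 0.617 to 4.72 ± 0.534 FPKM (-2.82, adjusted p = 6.31e-08). Against control, however, Myog was higher in LPS-MIC-1 without overlap (1.00, adjusted p = 3.61e-06, not a call), while Myod1 was lower (-2.19, adjusted p = 2.7e-07). In LPS against control, Myog was the 1 gene of this list that was called, with 6.54 ± 0.193 FPKM in control (1.32, adjusted p = 9.43e-06), beside 0.654% of all genes called higher. Of 11 neuronal nicotinic receptor subunit genes, Chrna10 alone was tested in muscle, with 6.93 ± 0.534, 6.52 ± 0.269 and 5.92 ± 0.260 FPKM in control, LPS and LPS-MIC-1, and it was not called in any comparison.

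**Figure D3:**
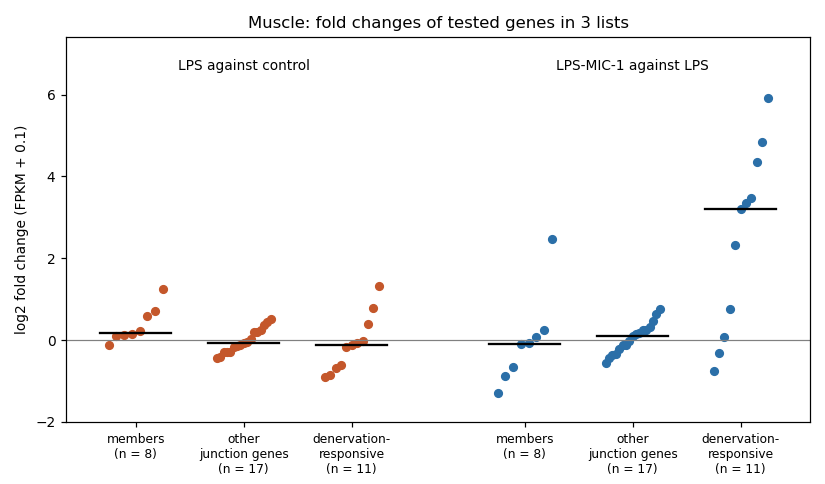
Log2 fold changes (FPKM + 0.1) in muscle of the tested members, of other neuromuscular junction genes and of genes that respond to denervation. Points are genes and horizontal bars are medians. In LPS-MIC-1 against LPS the medians were -0.08, 0.09 and 3.21, with Musk the highest of the members at 2.46.

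Over the 9 muscle libraries, each tested member was also set beside those of the 9475 tested genes that are not members. Pearson correlation of log2(FPKM + 0.1) was used, as a description of patterns that rest largely on 3 groups. Closest to Musk was Golgb1 (r = 0.998), with 3.13, 3.61 and 6.81 FPKM in control, LPS and LPS-MIC-1. Closest to Rapsn was Add3 (r = 0.997), closest to Chrne was Laptm4b (r = 0.994), and closest to Lrp4 was Sec14l1 (r = 0.992). Chrnb1 was closest to Zfp9 (r = 0.989) and Chrna1 to Kpna1 (r = 0.976). For Dok7 and Ache, whose replicates varied most, the closest genes were Vps26a (r = 0.956) and Gtpbp10 (r = 0.937). Among the members themselves, Musk ran opposite to Rapsn (r = -0.99), and Chrne ran with Lrp4 (r = 0.94).

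In the C2C12 experiment, 8 of the 10 genes had their highest values in the LPS-MIC-1 libraries, without overlap with the libraries labelled control and LPS. Musk and Dok7, 2 of these 8, were too low to be tested. All 6 tested members were wholly above both groups, beside 41.8% of all tested genes above LPS and 40.3% above control. Chrna1, Chrnd, Chrng, Rapsn and Lrp4 passed the filter only through LPS-MIC-1. The filter thus favoured such separation, and the count is given as a description. The genes Chrna1, Chrnb1, Chrnd, Chrng and Rapsn stood between 36.9 and 134 FPKM in LPS-MIC-1. Chrne and Ache were the exceptions, with at most 0.152 and 0.377 FPKM in any library. Since the control and LPS libraries carry macrophage markers and hardly any myoblast markers, treatment and cell identity cannot be told apart in these comparisons.

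**Figure D4:**
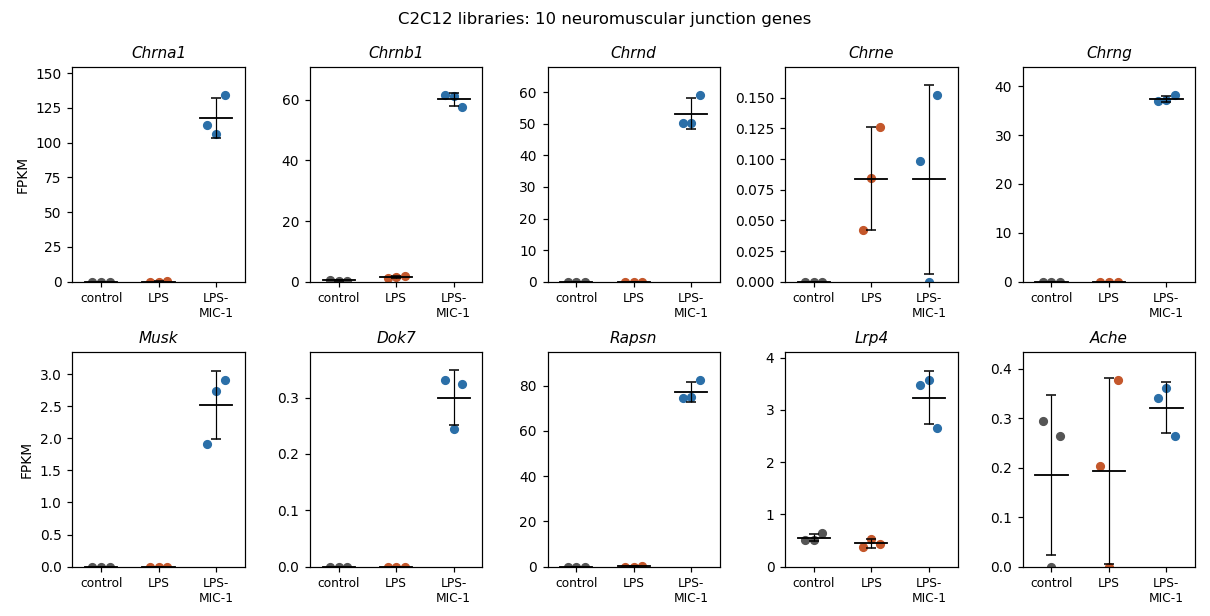
FPKM of the 10 genes in the C2C12 libraries, 1 panel per gene with a linear axis from 0. Points are libraries, horizontal lines are means and error bars are SDs over 3 libraries per group. Chrng, Musk and Dok7 were listed at 0 in all 6 libraries labelled control and LPS, and Chrne and Ache did not separate LPS-MIC-1 from LPS.

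Chrna1 had 113, 106 and 134 FPKM in LPS-MIC-1, against 0.0843, 0.119 and 0.153 in control and 0.143, 0.157 and 0.327 in LPS. Chrnd had 50.4, 50.3 and 59.0 FPKM in LPS-MIC-1, and elsewhere only 0.0177 in control replicate 1 and 0.0836 in LPS replicate 3. Rapsn had 74.4, 74.9 and 82.3 FPKM in LPS-MIC-1, at most 0.0349 in control and 0.0826, 0 and 0.248 in LPS. These 3 genes were each highest, among the LPS libraries, in replicate 3, where the myoblast markers were mixed. That replicate had 1.19 FPKM of Des and 0.355 of Cdh15, against 0.164 and 0.144 of Des and 0 of Cdh15 in replicates 1 and 2, but 0 of Itga7, against 3.76 and 4.27. Chrng, the fetal subunit gene, had 36.9, 37.2 and 38.1 FPKM in LPS-MIC-1 and was listed at 0 in the 6 other libraries. The same 6 libraries listed Musk and Dok7 at 0, and in LPS-MIC-1 these had 1.91, 2.74 and 2.90 FPKM and 0.331, 0.244 and 0.325 FPKM.

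Besides Chrna1, only Chrnb1 and Lrp4 were above 0 in every C2C12 library, and their control values were all below 1 FPKM. Chrnb1 had 0.559, 0.377 and 0.398 FPKM in the control libraries, 1.23, 1.63 and 1.98 in those labelled LPS and 61.4, 61.4 and 57.6 with LPS-MIC-1. Its groups did not overlap, and it was the 1 member called between LPS and control (log2 fold change 1.65, SE 0.188, adjusted p = 0.000105), of 6 tested and beside 20.9% of all 10877 genes tested (10.9% higher). With 1 FPKM added in place of 0.1, the difference was 0.85 and no longer a call. Lrp4 had 0.520, 0.508 and 0.641 FPKM in the control libraries, 0.369, 0.539 and 0.439 in those labelled LPS and 3.49, 3.57 and 2.66 with LPS-MIC-1. Control and LPS overlapped (-0.26, SE 0.180, adjusted p = 0.239).

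LPS-MIC-1 was called higher than LPS for all 6 members tested, beside 49.9% of all tested genes called and 24.3% called higher, and the same held against control beside 43.3% and 21.1%. Of these, Chrna1, Chrnd, Chrng, Rapsn and Lrp4 exceeded a mean of 1 FPKM only through the LPS-MIC-1 libraries, so the filter favoured such calls and the count is given as a description. The log2 fold change against LPS was 5.16 for Chrnb1 (SE 0.188, adjusted p = 5.33e-08) and 2.60 for Lrp4 (SE 0.180, adjusted p = 2.17e-06), a ratio of means of 37.2 and 7.21. For Chrna1 and Rapsn it was 8.62 and 8.70, values that depend on the 0.1 added to the near-zero levels in LPS. For Chrng, Musk and Dok7 no fold is given, because LPS and control are listed at 0. Chrne had 0.0419, 0.0843 and 0.126 FPKM in LPS and 0.0985, 0 and 0.152 in LPS-MIC-1, and was listed at 0 in control. Ache had 0.294, 0 and 0.263 FPKM in the control libraries, 0.203, 0 and 0.377 in those labelled LPS and 0.341, 0.360 and 0.263 with LPS-MIC-1, so all groups overlapped.

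In the C2C12 libraries the lists are given as counts only. Of 18 other junction genes tested in LPS-MIC-1 against LPS, 4 were called higher and 5 lower, beside 24.3% and 25.6% of all genes, with a median of -0.37. Of those higher, Lama5, Erbb2 and Nes exceeded a mean of 1 FPKM only through LPS-MIC-1. Of 9 denervation-responsive genes, 4 were called higher and 1 lower, with a median of 0.18. The 4 higher (Myog, Ncam1, Myh3 and Nnmt) likewise passed the filter only through LPS-MIC-1, and Myog had 27.9 ± 5.68 FPKM in LPS-MIC-1 (SD, n = 3) against 0 to 0.0890 in LPS. Of the neuronal subunits, Chrnb2 alone was tested and was called lower.

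The makeup of the receptor transcripts differed between the tables. Chrng made up 99.6 to 100% of the summed Chrng and Chrne FPKM in the C2C12 LPS-MIC-1 libraries and 0 to 0.654% in the 9 muscle libraries. The 5 subunit genes together came to 255 to 289 FPKM in C2C12 LPS-MIC-1, and in muscle to 43.0 to 45.6 for control, 48.1 to 50.0 for LPS and 42.7 to 45.0 for LPS-MIC-1. The tables were normalized separately, so levels are set side by side with no test between them. Transcripts of the fetal subunit thus far exceeded those of the adult subunit in the C2C12 LPS-MIC-1 libraries, and the reverse held in muscle.

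**Figure D5:**
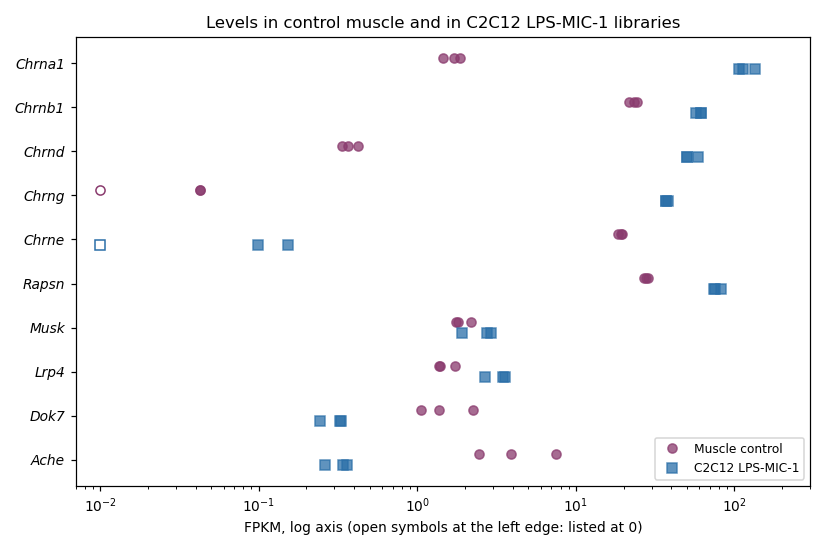
FPKM of the 10 genes in the 3 muscle control libraries (circles) and the 3 C2C12 LPS-MIC-1 libraries (squares) on a log axis, with open symbols at the left edge for libraries listed at 0. Chrng lay at 36.9 to 38.1 FPKM in C2C12 and at 0.0426 or less in muscle, whereas Chrne lay at 18.5 to 19.5 in muscle and at 0.152 or less in C2C12. The 2 tables were normalized separately.

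The order of the levels, which FPKM allows because it is per transcript length, also changed between groups of muscle. In control, Rapsn was first at 27.6 FPKM, followed by Chrnb1 at 23.0, Chrne at 19.1 and Ache at 4.62, each without overlap with the next. Musk, Chrna1, Dok7 and Lrp4 came next at means of 1.92 to 1.50 with overlapping neighbours, and Chrnd and Chrng were last. In LPS the order of the 10 was the same, and Rapsn and Chrnb1 overlapped. In LPS-MIC-1, Chrnb1 was first at 29.7 FPKM, and Musk was at 16.4, where it overlapped Rapsn at 16.0. Chrne and Ache overlapped at 11.4 and 10.2, and Lrp4 at 0.592 lay just above Chrnd at 0.402 without overlap. In the C2C12 LPS-MIC-1 libraries, Chrna1 was first at 118 FPKM, then came Rapsn at 77.2, Chrnb1 at 60.1 and Chrnd at 53.2, with overlap only between the last 2, and Chrng at 37.4.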

How the data were processed

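Transcript abundances were made by the authors with kallisto pseudoalignment and summarised per gene, and they deposited 1 FPKM value per gene symbol and library, separately for C2C12 and muscle. The submitters' processing notes list mm9, so no positions are given, and no sequences were at hand. Read depth per library is not stated. The muscle table has 11 unnamed columns, of which 9 hold per-sample values, and all 11 were left out. The authors' DESeq2 tables hold their own fold changes and p-values and were not used either.

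Each table was fitted on its own, as log2 of FPKM plus 0.1, by limma (version 3.58.1, R 4.3.3). The model had a mean for each of 3 groups over 9 libraries, with trended eBayes and Benjamini-Hochberg adjustment over genes with a mean above 1 FPKM. Fold changes on this scale understate changes of low genes. Thresholds were those of the study's methods. Steps were tested on simulated data. Plots used matplotlib (3.10.9, Python 3.11.15). An exact permutation test of 3 against 3 libraries cannot go below p = 0.1, so none was used.

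The 10 members and the lists (myoblast, muscle fibre, macrophage, Schwann cell, endothelial, fibroblast, intestine, liver, adipocyte, other junction, denervation-responsive and neuronal nicotinic genes) were chosen with earlier results of these data known. Named genes were the 10 members, up to 2 called genes per list and muscle comparison with the largest change, the 3 most abundant genes of each marker list, Lyz2, Des, Acta1 and Ckm, and the 2 genes most correlated with each member in muscle. Lcn2, Saa3, 4930544D05Rik, Dtna, Agrn, Lamb2, Colq, Runx1, Lama5, Erbb2, Nes, Ncam1, Myh3, Nnmt, Chrna10 and Chrnb2 were chosen after their values were seen. All 10 members matched RefSeq symbols (GRCm38.p6), used only for neighbours. The alternatives changed the pseudocount (0.01 or 1), the filter (none, or a mean above 5 FPKM), the scaling (median-ratio or quantile) and the fit (untrended eBayes, only the 6 libraries compared, or a replicate block), or left out each library in turn.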

Additional observations from a re-analysis of the deposited data

Results flagged for a closer look

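Rapsn and Lrp4 moved in opposite directions in the 2 experiments, with no overlap between the groups in either, and the difference between experiments was not tested because the tables were normalized separately. Against LPS, Rapsn had a log2 fold change of -0.66 in muscle and 8.70 in C2C12, and Lrp4 had -1.30 in muscle and 2.60 in C2C12. Against control, Rapsn had -0.79 in muscle and 9.45 in C2C12, and Lrp4 had -1.20 and 2.34. The C2C12 values compare libraries with macrophage markers with libraries with myoblast markers. No single library was tested as an outlier, since groups held 3, but each library was left out in turn.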

How the results depend on the processing

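Of 108 counts of called members under the alternatives, 103 stayed within 1.5 times the reported count. With a pseudocount of 1, the C2C12 LPS against control count went from 1 to 0, and with a pseudocount of 1 or a mean above 5 FPKM the muscle counts of LPS-MIC-1 against LPS and against control went from 2 to 1, which was Musk. At the stricter filter Lrp4 was not among the genes tested. Of 744 member fold changes, 733 kept their direction and their side of the adjusted p threshold, whatever the fold, and the 9 that changed sign were of uncalled genes. Chrnd in C2C12 LPS against control was -0.08 without LPS replicate 3, and -0.08 to 0.36 over all single libraries left out. In muscle, Dok7 was -0.01 for LPS against control without control replicate 3, and for LPS-MIC-1 against LPS it was -0.03 with quantile normalization, -0.06 without LPS replicate 2 and -0.13 without LPS-MIC-1 replicate 3. Over single libraries left out, Dok7 ranged from -0.01 to 0.50 and from -0.13 to 0.28 in these comparisons. Ache for LPS-MIC-1 against LPS was 0.14 and 0.10 without LPS replicates 2 and 3, and 0.20 and 0.03 without LPS-MIC-1 replicates 2 and 3, and ranged from -0.44 to 0.20. The cause was not tested. Quantile normalization also moved the muscle calls over all genes in LPS-MIC-1 against LPS from 916 higher and 515 lower to 768 and 680.

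The replicate numbers were checked for pairing, and the deviations of same-numbered libraries correlated with r between -0.0757 and 0.0823, none over 0.1, so they were not treated as pairs. With the replicate block, the counts of called members were 1, 6 and 6 in C2C12 and 0, 2 and 2 in muscle for LPS against control, LPS-MIC-1 against LPS and LPS-MIC-1 against control, as without it. The depth is unknown, so the counting error of values near 0 FPKM is too.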
